A study of Mus musculus with 8 samples.

Results

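The MHC class II presentation genes are described here in B-cell-biased lymphoid progenitors of mice with and without H2afy, the gene of the histone variant macroH2A1. The set is a list of 10 genes: H2-Aa, H2-Ab1, H2-Eb1, Cd74, Ciita, H2-DMa, H2-DMb1, H2-DMb2, H2-Oa and H2-Ob. All 10 were found by symbol among the 37991 gene IDs of the count table, and all 10 were among the 13722 genes with enough counts to be tested. The 4 knockout pools (H2afy_KO 1 to 4) came from H2afy-/- mice and the 4 wild-type pools (H2afy_WT 1 to 4) from H2afy+/+ mice, all 5 to 12 weeks old and with no treatment named in the labels. Each pool was the RNA of 5000 to 15000 progenitors of 2 to 3 mice, sorted from bone marrow after enrichment for Kit-bearing cells. The labels do not say whether pools shared mice or litters, give no strain, and do not name the deleted part of H2afy. Any p-value therefore measures the spread between these pools.

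Class II molecules carry peptides from the endosomes to the cell surface, where CD4+ T cells read them. The alpha and beta chains bind the invariant chain in the endoplasmic reticulum, and the remnant of that chain is later exchanged for peptide by H2-DM, which H2-O inhibits in B cells and some dendritic cells. The coactivator CIITA switches on the genes of the peptide-binding chains together, through factors that sit on an X box and a Y box just upstream of them. In the B lineage class II is a feature of maturing cells, and it is also high in dendritic cells.

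The promoter letters are shown first because the X and Y boxes are the known sites of the shared control of class II genes. RefSeq windows of 300 bases on GRCm38.p6, with 250 bases before and 50 after a RefSeq gene start, were found for 7 of the 10 genes. H2-Ab1, Cd74 and Ciita had no entry. Each line gives the gene strand 5′ to 3′, with a Y-like TGATTGG in capitals and, where one lies 25 to 35 bases before it, an X-like GNAAC also in capitals. All windows lie on chromosome 17.
H2-Aa, chr17:34287862-34287918, minus strand: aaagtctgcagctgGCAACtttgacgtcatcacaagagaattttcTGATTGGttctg
H2-Eb1, chr17:34305761-34305817, plus strand: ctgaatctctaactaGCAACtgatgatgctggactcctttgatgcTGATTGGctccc
H2-DMb1, chr17:34153083-34153139, plus strand: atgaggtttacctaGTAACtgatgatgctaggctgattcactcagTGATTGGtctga
H2-DMb2, chr17:34145112-34145168, plus strand: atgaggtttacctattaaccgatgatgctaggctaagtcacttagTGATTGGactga
H2-Oa, chr17:34092289-34092345, plus strand: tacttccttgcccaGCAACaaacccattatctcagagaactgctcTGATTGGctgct
H2-Ob, chr17:34238801-34238857, plus strand: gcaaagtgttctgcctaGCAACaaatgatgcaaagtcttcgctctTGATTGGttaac

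The Y-like letters began 45 to 92 bases before the gene start in these 6 genes. In 5 of them the X-like letters began 28 to 31 bases before the Y-like ones; H2-DMb2 had the Y-like letters alone. Of all 32851 RefSeq windows, searched on both strands, 7.82% held TGATTGG and 0.323% held the pair at that spacing. The class II windows were read on the gene strand only, and there neither of the 2 windows of H2-DMa held either arrangement. Those windows, chr17:34122582-34122881 and chr17:34125268-34125567, lie upstream of the counted H2-DMa gene, judged by the positions of its neighbours in both builds. The letters at the start of that gene were therefore not searched. The match is one of letters, and the counts do not bear on binding.

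The pools held 21330088 to 29029765 gene counts. Of these, H2afy took 1423 to 1953 CPM (counts scaled to a common library size by TMM) in the knockout pools and 1981 to 2567 CPM in the wild-type pools, with no overlap (log2 fold change -0.45, SE 0.15, adjusted p = 0.504, and 0.000226 by DESeq2 with the replicate number as a block). Since the deleted exons are unknown, this level is no test of the genotypes. Transcripts of the sorted cell type were present in every pool: the 9 lymphoid progenitor markers, among them Dntt, Il7r, Flt3 and Ly6d, summed to 6577 to 8110 CPM in knockout and 8256 to 9851 CPM in wild-type pools. Of these 9, 3 had log2 fold changes above 0 and 6 below (median -0.32), with 0 called by edgeR (0 higher and 5 lower at an unadjusted p below 0.05) and 1, Rag1, called by DESeq2 and by edgeR with a replicate block. DESeq2 with that block called 4, all lower: Rag1, Rag2, Dntt and Il7r. The immunoglobulin share of counts was 0.402%, 10.0%, 39.0% and 33.4% in knockout pools 1 to 4. It was 3.47%, 0.948%, 19.5% and 12.9% in wild-type pools 1 to 4, so knockout pools 3 and 4 were the highest of the 8.

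By level per kilobase of exon, the invariant chain gene Cd74 led the class II genes in wild-type pools, at 1191 ± 743 CPM per kilobase (SD, n = 4). H2-DMa followed at 184.5 ± 10.9, H2-Ob at 141.5 ± 26.6, H2-Aa at 54.7 ± 16.4, H2-Ab1 at 38.7 ± 9.96 and H2-Eb1 at 27.9 ± 6.06 CPM per kilobase. H2-Oa was at 22.0 ± 3.12, H2-DMb1 at 15.8 ± 2.13, H2-DMb2 at 14.9 ± 3.34 and Ciita at 0.949 ± 0.437 CPM per kilobase. In that order the wild-type pools of neighbouring genes did not overlap between Cd74 and H2-DMa, between H2-Ob and H2-Aa, or between H2-DMb2 and Ciita, and they overlapped between all other neighbours. Of the H2-DM and H2-O chains, H2-DMa and H2-Ob thus stood above the peptide-binding chains in these wild-type pools. The means of H2-Oa, H2-DMb1 and H2-DMb2 lay below them. Such comparisons between genes depend on the length used, here all annotated exons of a gene.

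No class II gene passed edgeR's test between genotypes. The quasi-likelihood test called 0 of the 10, and 0 of 13722 genes in all (0%), at an adjusted p under 0.05. The signs differed by role: the 3 peptide-binding chains and Cd74 had positive log2 fold changes (knockout over wild-type), both H2-O chains had negative ones, and the H2-DM chains lay between -0.20 and 0.32. At an unadjusted p under 0.05 the test gave 3 members higher, H2-Aa, H2-Ab1 and H2-Eb1, where 3.88% of all genes passed on that side, and 1 lower, H2-Ob, where 3.69% did. The median log2 fold change was 0.31 over the 10 genes and 0.00 over all genes tested, with 7 above 0 and 3 below. That median was 0.18 without wild-type pool 1, 0.50 without wild-type pool 2 and 0.14, with 6 genes above 0, without knockout pools 3 and 4. In 0 of the 10 genes were the groups free of overlap, where 2.18% of all genes were higher and 2.35% lower without overlap. In bulk RNA, more cells with a transcript and more transcript per cell cannot be told apart.

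**Figure D1:**
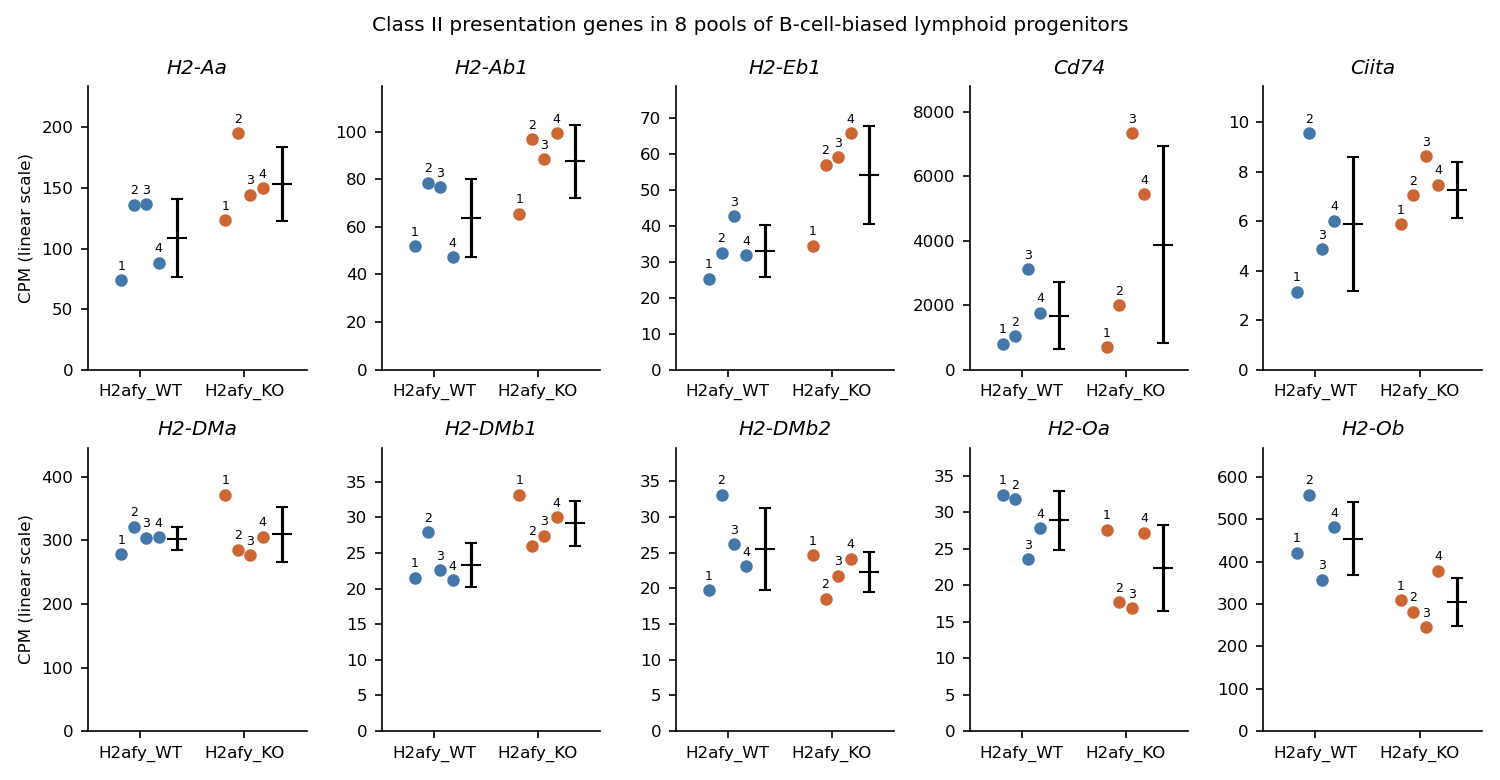
CPM of each class II gene (linear axes from 0) in the 4 H2afy_WT and 4 H2afy_KO pools; points are pools with their replicate number, and the bar beside them is the mean ± SD. H2-Eb1 and H2-Ob come nearest to separate groups, and Cd74 reaches 7342 CPM in H2afy_KO 3.

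The peptide-binding chains come first. H2-Eb1 (ENSMUSG00000060586, chromosome 17, 34442828 to 34453144, plus strand of NCBIM37), the beta chain of the E molecule, had 34.5, 57.1, 59.2 and 65.9 CPM in knockout pools 1 to 4 and 25.3, 32.5, 42.8 and 31.9 CPM in wild-type pools 1 to 4. In 3 of 4 knockout pools it lay above every wild-type pool, and knockout pool 1 lay inside their range. The log2 fold change was 0.71 (SE 0.22, adjusted p = 0.473).

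H2-Aa (ENSMUSG00000036594, chromosome 17, 34406276 to 34424772, minus strand), the alpha chain of the A molecule, had 123, 195, 145 and 150 CPM in knockout pools 1 to 4, against 73.8, 136, 137 and 88.2 CPM in wild-type pools 1 to 4. Its beta chain partner H2-Ab1 (ENSMUSG00000073421, chromosome 17, 34400154 to 34406363, plus strand) had 65.5, 96.9, 88.6 and 99.4 CPM in knockout pools and 51.8, 78.6, 76.7 and 47.3 CPM in wild-type pools. As for H2-Eb1, knockout pool 1 was the pool that fell inside the wild-type range in both genes. The log2 fold changes were 0.50 (SE 0.22, adjusted p = 0.639) for H2-Aa and 0.46 (SE 0.20, adjusted p = 0.629) for H2-Ab1. The genes lie tail to tail and share 17 exonic bases, whose reads cannot be told apart without strand.

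Per kilobase, H2-Aa stood above H2-Ab1 in every pool, at ratios of 1.18 to 1.67, while the level of each gene spanned 2.65-fold and 2.10-fold between its lowest and highest pools. In each of the 4 pairs of same-numbered pools, H2-Aa, H2-Ab1 and H2-Eb1 were higher in knockout pools. The labels do not say what a number marks, and the share of all genes with such agreement is not given here. The alpha chain partner of H2-Eb1 is annotated as the pseudogene H2-Ea-ps in NCBIM37 and had 0 to 4 counts per pool. The remaining beta chain gene H2-Eb2 was at 1.6 ± 0.619 CPM in knockout pools and 2.33 ± 1.13 CPM in wild-type pools (SD, n = 4 each; log2 fold change -0.54, SE 0.43, adjusted p = 0.806). With 1 pool left out its log2 fold change ran from -0.82 (without knockout pool 4) to -0.15 (without wild-type pool 2).

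Cd74 (ENSMUSG00000024610, chromosome 18, 60963502 to 60972300, plus strand), the invariant chain that occupies the peptide groove during assembly, varied most among the 10 genes. It had 697, 2003, 7342 and 5454 CPM in knockout pools 1 to 4 and 801, 1031, 3126 and 1760 CPM in wild-type pools 1 to 4, a 10.5-fold span. The lowest pool and the 2 highest were all knockout pools. The log2 fold change was 1.21 (SE 0.80, adjusted p = 0.773), 0.70 without knockout pool 3 alone, and -0.31 (SE 0.72) without knockout pools 3 and 4.

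The pools ranked by Cd74 nearly as they ranked by immunoglobulin share: the 3 highest pools, knockout pool 3, knockout pool 4 and wild-type pool 3, and the lowest, knockout pool 1, were the same on both. All 7 plasma cell markers (among them Xbp1, Sdc1 and Igj) had positive log2 fold changes, with a median of 1.40, and their summed level ran from 169.9 to 20600 CPM in knockout pools and from 573.1 to 9113 CPM in wild-type pools, with none at 0 in any pool. EdgeR called 0 of them (1 higher and 0 lower at an unadjusted p below 0.05) and DESeq2 called 1, Sdc1. Without knockout pools 3 and 4, 1 of the 7 was above 0 and the median was -0.72. With the immunoglobulin share as a covariate the log2 fold change of Cd74 was 0.58 (SE 0.30, adjusted p = 0.634), while those of H2-Eb1 and H2-Ob were 0.60 and -0.55. Per kilobase, Cd74 exceeded H2-Aa by 71.6-fold in knockout pool 3 and 51.3-fold in knockout pool 4, and by 7.96-fold in knockout pool 1. The part of plasma cell RNA in the Cd74 values was not tested.

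**Figure D2:**
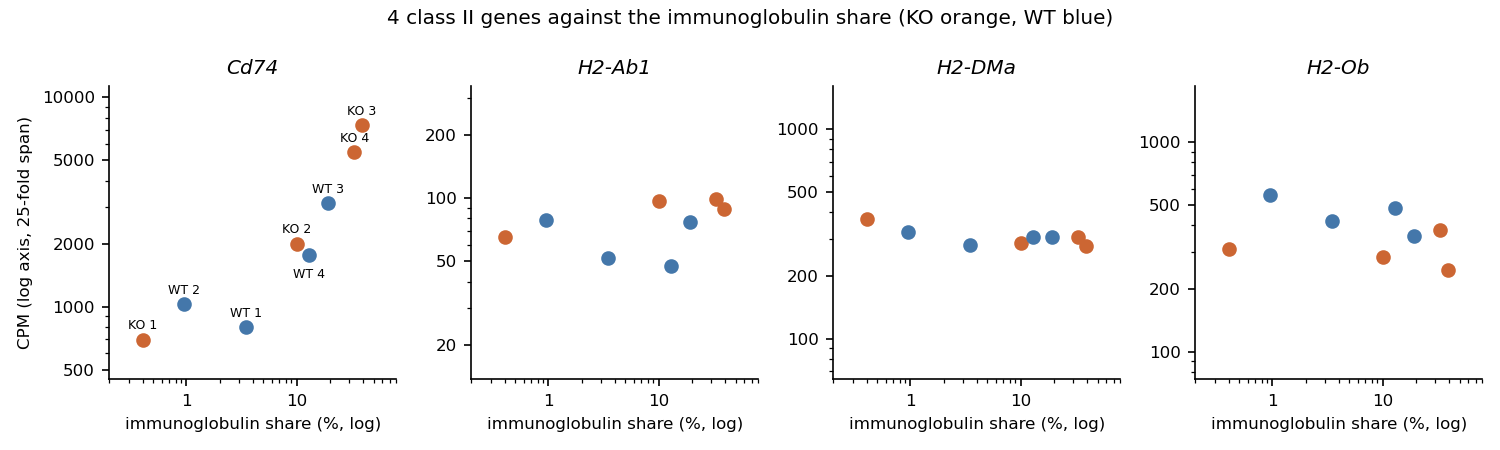
CPM of Cd74, H2-Ab1, H2-DMa and H2-Ob (log axes, each spanning the same fold range) against the percentage of counts from immunoglobulin genes (log axis); each point is a pool, named in the Cd74 panel, orange for H2afy_KO and blue for H2afy_WT. Cd74 runs from 697 CPM at a share of 0.402% to 7342 CPM at 39.0%, while H2-DMa stays between 276.8 and 372 CPM.

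H2-O, the inhibitor of H2-DM, had the opposite sign to the peptide-binding chains. H2-Ob (ENSMUSG00000041538, chromosome 17, 34375848 to 34390850, plus strand), its beta chain, had 309.6, 281.6, 245.5 and 379 CPM in knockout pools 1 to 4 and 421, 558, 358 and 482 CPM in wild-type pools 1 to 4. Only knockout pool 4 reached into the wild-type range. The knockout mean was 66.8% of the wild-type mean (304 ± 56.6 and 455 ± 85.6 CPM, SD, n = 4 each), with a log2 fold change of -0.58 (SE 0.18, adjusted p = 0.473).

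The alpha chain gene H2-Oa (ENSMUSG00000024334, chromosome 17, 34229285 to 34232179, plus strand) had 27.7, 17.7, 16.9 and 27.2 CPM in knockout pools and 32.4, 31.8, 23.6 and 27.8 CPM in wild-type pools. Its log2 fold change was -0.37 (SE 0.20, adjusted p = 0.713). Both H2-O genes were lower in knockout pools in all 4 same-numbered pairs, a pairing that the labels do not state. Here too the share of all genes with such agreement is not given. H2-Ob exceeded H2-Oa per kilobase by 4.57-fold to 7.18-fold over the 8 pools, and both were at their lowest in knockout pool 3. That ratio depends on the length used, all annotated exons, at 3216 bases for H2-Ob and 1314 for H2-Oa. A single coding transcript of each had 913 and 1088 bases.

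Markers of the mature B cell state lay on both sides of 0. Of 8 measured, edgeR and DESeq2 called 0 (0 higher and 3 lower at an unadjusted p below 0.05 in edgeR), and 4 had negative log2 fold changes, among them the tetraspanin gene Cd37 at -0.46 (SE 0.17, adjusted p = 0.527) and the B-lineage kinase gene Blk at -0.62 (SE 0.22, adjusted p = 0.533). Their summed level was 499.1 to 859 CPM in knockout pools and 856.8 to 1286 CPM in wild-type pools. DESeq2 with the replicate block called 3 of the 8, all lower, among them Cd37 (adjusted p = 0.00768) and Blk (adjusted p = 0.0151). The 4 with positive log2 fold changes were Ms4a1 (1.34, SE 1.23), Cr2 (0.48, SE 0.61), Cd22 (0.41, SE 0.43) and Fcer2a (0.33, SE 0.48). Without knockout pools 3 and 4, Ms4a1 and Fcer2a turned to -0.22 and -0.33. The late markers Cr2 and Fcer2a were near or under 1 CPM in both groups. The part of B-lineage stage in the H2-O values was not tested.

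H2-DM, which removes the invariant chain remnant, had no common sign. H2-DMa (ENSMUSG00000037649, chromosome 17, 34272127 to 34276046, plus strand) had 372, 285, 276.8 and 306 CPM in knockout pools 1 to 4 and 279, 322, 305 and 306 CPM in wild-type pools 1 to 4. Its log2 fold change was 0.03 (SE 0.13, adjusted p = 0.971), and its span of 1.34-fold over the 8 pools was the smallest among the 10 genes. Leaving out knockout pool 1 or wild-type pool 1 turned its sign (log2 fold changes of -0.07 and -0.01).

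The beta chain of H2-DM has 2 neighbouring copies, and their counts are uncertain. Of the 50-base windows of the H2-DMb1 transcript, 27.1% also occur in another coding transcript, in each case H2-DMb2, and 31.7% of those of H2-DMb2 occur elsewhere, mostly in H2-DMb1. H2-DMb1 (ENSMUSG00000079547, chromosome 17, 34290017 to 34297168, plus strand) had 33.2, 26.1, 27.4 and 30.0 CPM in knockout pools and 21.5, 27.9, 22.6 and 21.2 CPM in wild-type pools (log2 fold change 0.32, SE 0.15, adjusted p = 0.672). H2-DMb2 (ENSMUSG00000037548, chromosome 17, 34280252 to 34288498, plus strand) had 24.7, 18.6, 21.8 and 24.2 CPM in knockout pools and 19.7, 33.1, 26.2 and 23.2 CPM in wild-type pools (log2 fold change -0.20, SE 0.18, adjusted p = 0.836). The H2-DMb2 value was -0.31 without wild-type pool 1, -0.12 without knockout pool 2 and -0.05 without wild-type pool 2.

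Counted together, the copies had a log2 fold change of 0.07 (SE 0.15, adjusted p = 0.942). The sum was added after the values of both were seen. The ratio of H2-DMb1 to H2-DMb2 per kilobase was 1.44 to 1.62 in knockout pools and 0.975 to 1.26 in wild-type pools, with no overlap, a description that was not tested. The alpha chain H2-DMa exceeded both beta copies together by 5.13-fold to 6.68-fold per kilobase.

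Ciita (ENSMUSG00000022504, chromosome 16, 10480237 to 10527657, plus strand), the gene of the class II coactivator, was the lowest of the 10, with 93 to 253 counts per pool. It had 5.87, 7.05, 8.61 and 7.47 CPM in knockout pools 1 to 4 and 3.14, 9.55, 4.86 and 6.01 CPM in wild-type pools 1 to 4. The knockout pools all lay inside the wild-type range (log2 fold change 0.30, SE 0.32, adjusted p = 0.862). That value was 0.08 without wild-type pool 1 and 0.63 without wild-type pool 2. A second ID that carries the same symbol lies inside the gene and was not added.

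**Figure D3:**
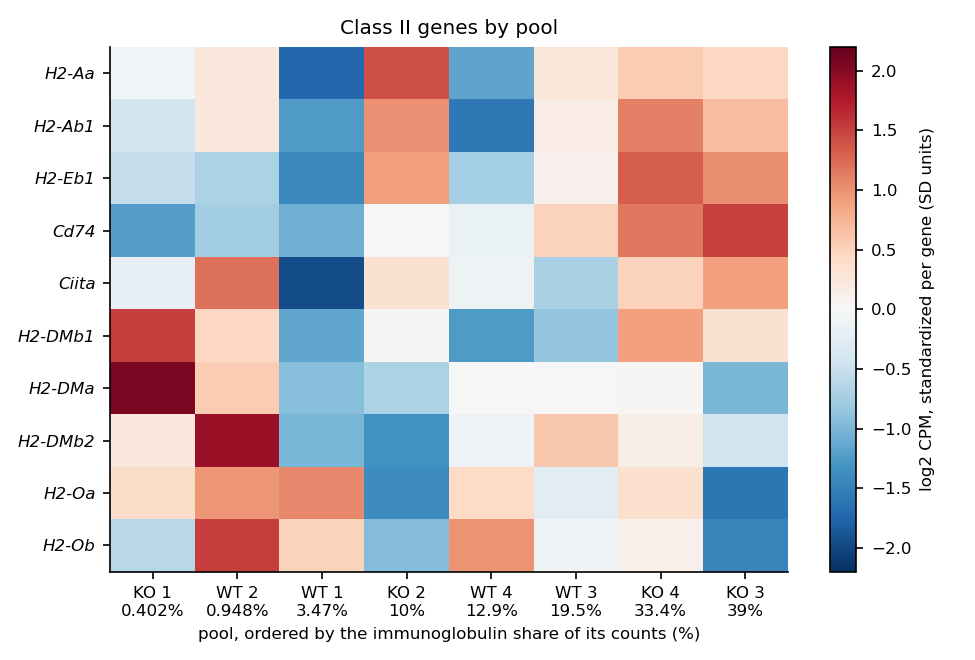
log2 CPM of the 10 class II genes, standardized per gene over the 8 pools (colour, SD units), with pools ordered left to right by immunoglobulin share (0.402% to 39.0%). H2-Aa, H2-Ab1 and H2-Eb1 are high in KO 2, KO 3 and KO 4, H2-Oa and H2-Ob are lowest in KO 3, and Cd74 is highest in the 3 pools on the right.

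The peptide-binding chains varied together over the pools, and so did the H2-O chains. Over the 8 pools, which share library preparation and scaling, the log2 CPM of H2-Aa and H2-Ab1 had a Pearson correlation of 0.93, and that of H2-Ab1 and H2-Eb1 one of 0.87. H2-Oa and H2-Ob were at 0.84. Between these chains and H2-O the 6 values were all negative, from -0.74 for H2-Eb1 with H2-Oa to -0.49 for H2-Ab1 with H2-Ob. The pattern was not particular to the peptide-binding chains. Cd74 was at 0.84 with H2-Eb1, 0.60 with H2-Ab1 and 0.475 with H2-Aa, and at -0.64 with H2-Oa and -0.45 with H2-Ob. These are descriptions over 8 pools that include both genotypes. Among the genes outside immunoglobulin whose profile was most like the mean of the 10 were Rhobtb2, Fam193b, Trio, Rbl2, Fbxl20, Synj2 and Igtp (Pearson correlations of 0.97 to 0.93 among 9454 candidate genes). H2-Oa and H2-Ob themselves had correlations of -0.07 and 0.02 with that mean, so it does not stand for all 10.

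Of the other tests, 1 called members. The replicate number as a block in edgeR called 0 of the 10, against 0.109% of all genes, and DESeq2 called 0 of the 10, against 0.897%. DESeq2 with the block called 3 of the 10, against 4.02% of all genes: H2-Aa higher at 0.53 (SE 0.15, adjusted p = 0.0153), H2-Eb1 higher at 0.69 (SE 0.16, adjusted p = 0.000873) and H2-Ob lower at -0.58 (SE 0.13, adjusted p = 0.00118). In edgeR with the same block the adjusted p-values of these 3 genes were 0.167, 0.101 and 0.122. Their log2 fold changes without knockout pools 3 and 4 were 0.56, 0.47 and -0.61, with 0 genes called by edgeR. The calls with the block rest on replicate numbers whose meaning the labels do not give. Some pools correlated across genes more with a pool of another number.

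**Figure D4:**
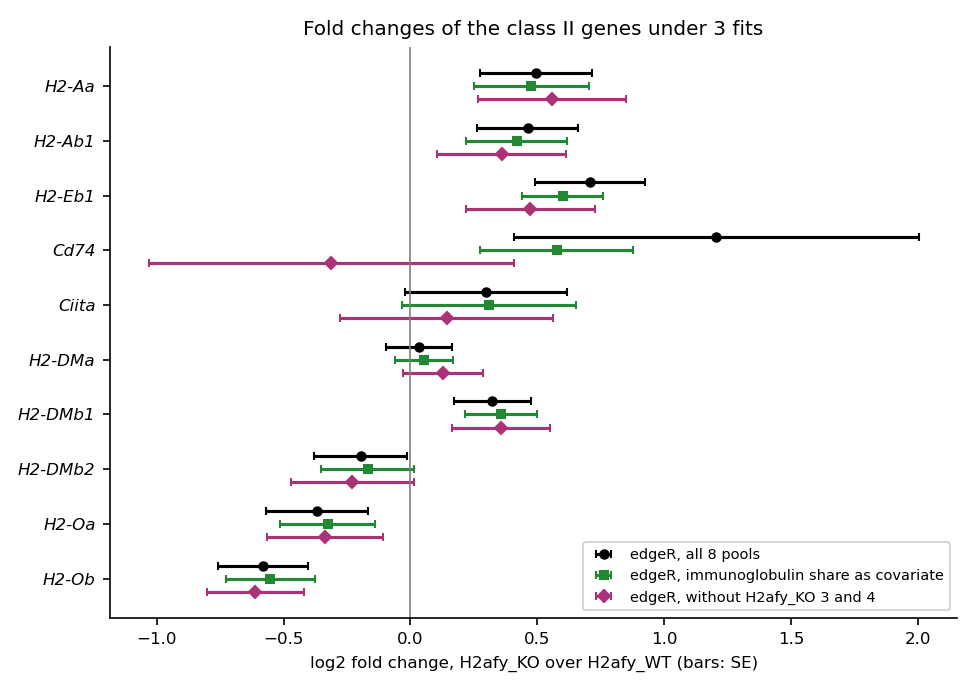
log2 fold change (H2afy_KO over H2afy_WT, points) with its SE (bars) for the 10 class II genes in 3 edgeR fits: all pools, all pools with the immunoglobulin share as covariate, and without H2afy_KO 3 and 4. Cd74 moves from 1.21 to 0.58 and -0.31, while H2-Ob stays at -0.58, -0.55 and -0.61.

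The factors that act on class II genes were read next. Of the 7 promoter factors measured, edgeR called 0 (1 at an unadjusted p below 0.05, with DESeq2 calling 0), and their median log2 fold change was -0.03. Rfx5, the X box subunit of the RFX complex, was at 8.78 ± 1.06 CPM in knockout pools and 5.92 ± 0.811 CPM in wild-type pools (SD, n = 4 each), with no overlap between the groups (log2 fold change 0.57, SE 0.20, adjusted p = 0.527). Its partner Rfxank was at 0.16 (SE 0.17, adjusted p = 0.862) and the Y box subunit Nfyb at -0.16 (SE 0.15, adjusted p = 0.833).

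Of 9 tested regulators of Ciita, edgeR called 0 (2 higher and 2 lower at an unadjusted p below 0.05), edgeR with the replicate block called 1, Irf8, and DESeq2 called 2, Irf8 and Ebf1. DESeq2 with the block called 4, 2 higher and 2 lower. Irf8, a factor of B, monocyte and dendritic cells, was at 324 ± 38.9 and 160 ± 26.0 CPM (log2 fold change 1.02, SE 0.15, adjusted p = 0.0722, and 0.0420 with the replicate block). For Ebf1, which helps specify B cells, the log2 fold change was -1.41 (SE 0.45, adjusted p = 0.509). The groups did not overlap in either of these genes, while those of Ciita did.

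The 8 tested genes of antigen processing and class II turnover all had positive log2 fold changes, with a median of 0.61. EdgeR called 0 of them (2 at an unadjusted p below 0.05), as did DESeq2. DESeq2 with the replicate block called 4 of the 8, all higher: the cathepsin genes Ctsb (adjusted p = 0.000496), Ctss (0.00546) and Ctsl (0.0301), and Lgmn (0.000964). The asparagine endopeptidase gene Lgmn was at 0.85 (SE 0.26, adjusted p = 0.473), Ctsl at 0.64 (SE 0.25, adjusted p = 0.608) and March1, the ligase that removes class II from the surface, at 0.92 (SE 0.46, adjusted p = 0.687). Without knockout pools 3 and 4, 5 of the 8 were above 0 and the median was 0.07, so the shared sign did not hold without those pools. Ctss was among the genes that turned, from 1.14 (SE 0.55) to -0.08.

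Class I presentation, measured by 13 tested genes, had a median of 0.18 with 9 above 0 and 4 below, and 0 called by edgeR (2 at an unadjusted p below 0.05) or DESeq2. The peptide transporter gene Tap2 was at 78.8 ± 18.4 and 48.5 ± 13.5 CPM (log2 fold change 0.70, SE 0.24, adjusted p = 0.519), and its neighbours in peptide loading Tapbp and Pdia3 were at 0.50 (SE 0.18, adjusted p = 0.533) and 0.36 (SE 0.18, adjusted p = 0.685). DESeq2 with the replicate block called 2 of the 13, Tap2 (adjusted p = 2.9e-07) and Tapbp (adjusted p = 0.037). Tap2 lies in the same stretch of chromosome 17 as 8 of the class II genes. Between 34229285 and 34453144 there, 6 further genes were tested, with 4 above 0, 2 below and a median of 0.13. Psmb8 was at 0.23 (SE 0.14, adjusted p = 0.737) and Tap1 at 0.18 (SE 0.19, adjusted p = 0.862).

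**Figure D5:**
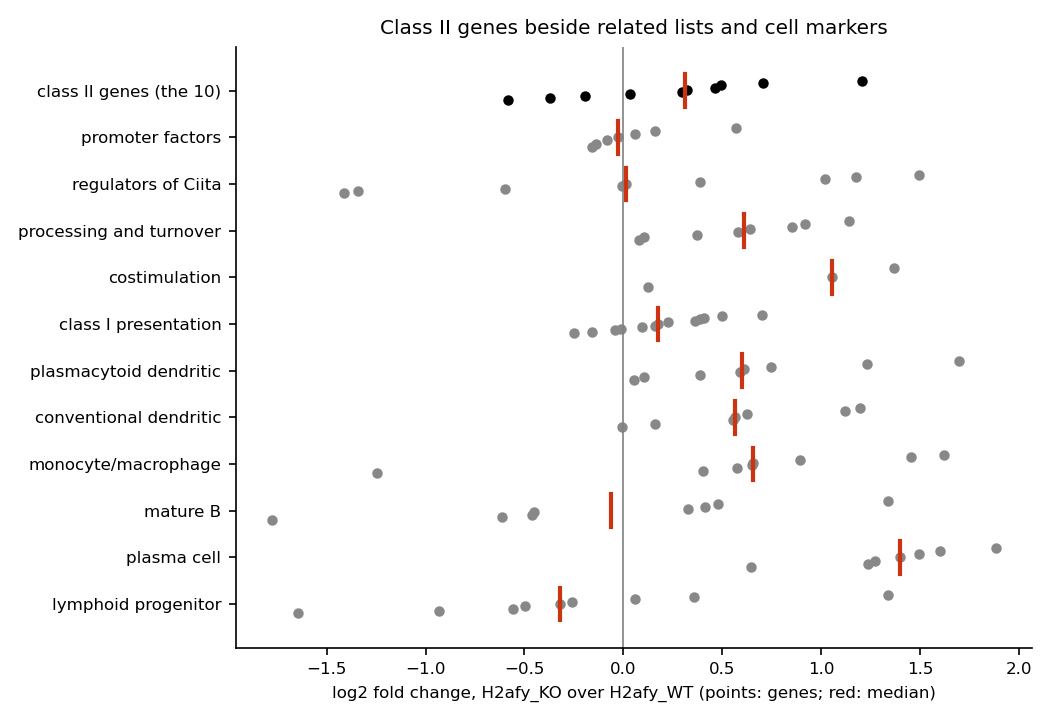
log2 fold change (H2afy_KO over H2afy_WT) of each tested gene (points) in the class II set, 5 related lists and 6 marker lists of cell types; red bars are medians. The class II genes span -0.58 to 1.21, and the 7 plasma cell markers all lie above 0 with a median of 1.40.

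Other cells that bear class II were looked for by their markers. All 8 plasmacytoid dendritic markers had positive log2 fold changes (median 0.60), summing to 852.1 to 1166 CPM in knockout pools and 705.3 to 1053 CPM in wild-type pools. EdgeR called 0 of them (4 at an unadjusted p below 0.05) and DESeq2 called 2: Cox6a2 at 0.61 (SE 0.13, adjusted p = 0.36 in edgeR) and Bst2 at 0.74 (SE 0.19, adjusted p = 0.42 in edgeR). DESeq2 with the replicate block called 4 of the 8, all higher: Bst2, Cox6a2, Irf7 and Pacsin1. Without knockout pools 3 and 4, 6 of the 8 were above 0 (Siglech at -0.20 and Ccr9 at -0.43) and the median was 0.55. Of the 7 tested conventional dendritic markers 6 were above 0 (median 0.57, 0 called by edgeR or DESeq2, 2 at an unadjusted p below 0.05 in edgeR), with Sirpa at 0.62 (SE 0.22, adjusted p = 0.519) and Clec9a at 1.2 (SE 0.43, adjusted p = 0.529). DESeq2 with the replicate block called Clec9a (adjusted p = 0.00982). Without knockout pools 3 and 4, 5 of the 7 were above 0 and the median was 0.29. The markers summed to 44.4 to 86.1 CPM in knockout pools and 33.3 to 58.7 CPM in wild-type pools, and the defining factor Batf3 was at 0.452 ± 0.346 and 0.232 ± 0.161 CPM.

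Of the 8 monocyte and macrophage markers 7 were above 0 (median 0.65, 0 called by edgeR, with 3 at an unadjusted p below 0.05, and 1, Cd68, by DESeq2), and they summed to 256.1 to 1339 CPM in knockout pools and 166.3 to 863.9 CPM in wild-type pools. Cd68 was at 78.9 ± 13.9 and 28.8 ± 8.05 CPM (log2 fold change 1.45, SE 0.21, adjusted p = 0.0579), and Ms4a6c was at 0.66 (SE 0.21, adjusted p = 0.495). With the replicate block edgeR called Cd68 (adjusted p = 0.00936), and DESeq2 with the block called Cd68 and Ms4a6c. The 1 below 0 was Lyz2, at 108.1 ± 17.2 and 256.7 ± 188.5 CPM (log2 fold change -1.25, SE 0.55, adjusted p = 0.674). Without knockout pools 3 and 4, 6 of the 8 were above 0 and the median was 0.39. Ly6c2, at 983 CPM in knockout pool 3, turned from 1.62 (SE 1.43) to -2.01 without those pools. The costimulatory genes Cd83, Cd40 and Cd86, none of them called by edgeR (0 at an unadjusted p below 0.05) or DESeq2, had log2 fold changes of 1.37 (SE 0.81, adjusted p = 0.737), 1.05 (SE 0.91, adjusted p = 0.824) and 0.13 (SE 0.17, adjusted p = 0.900). Without knockout pools 3 and 4, Cd83 turned to -0.06 and Cd40 to -0.82, and Cd40 was at -0.10 with the immunoglobulin share as a covariate. The part of dendritic cells or monocytes in the H2-Aa, H2-Ab1 and H2-Eb1 values was not tested.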

How the data were processed

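RNA of 8 pools was read as single reads of 50 bases. The submitters' processing notes name HISAT2 2.0.6 and the mm9 build. The sources used here name no read counter, annotation or strand setting. Raw whole-number counts per Ensembl gene were deposited by the authors, and no column was left unmapped to a sample. GENCODE M1 (NCBIM37, the mm9 assembly) named 37205 of the 37991 IDs. Of 107 list entries, 3 matched through a synonym and 2 (Spi1, Sppl2a) did not match. No samples were copies of one another (over 28 pairs the chi-square per degree of freedom was at least 64.2).

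The test was edgeR 4.0.16 quasi-likelihood (TMM, filterByExpr with a minimum count of 10, robust), over all 13722 genes with Benjamini-Hochberg adjustment at 0.05. The SE is the absolute log2 fold change over the root of F. CPM uses TMM-scaled libraries, and log2 CPM a prior count of 2. Alternatives were DESeq2 1.42.0, limma 3.58.1 (voom), other factors and filters, a replicate block, no immunoglobulin genes, their share as covariate, and pools left out (R 4.3.3). The members, lists and alternatives were chosen with earlier results of these data known. Deviations of same-numbered pools correlated at 0.19, 0.19, 0.36 and 0.41 across genes, so by the rule of over 0.1 the numbers were read as pairs; the labels do not say what a number marks. Some pools correlated more with another number: knockout pool 1 with wild-type pool 2 (0.52) and knockout pool 3 with wild-type pool 4 (0.45).

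Named genes were the 10 members, H2afy and H2afy2, 3 genes of smallest p per list or region, and 8 most like the members' mean at 5 CPM or more. A few genes that this rule names are not reported here. Igj, Cr2, Fcer2a, Ms4a1, Cd22, Lyz2, Ly6c2, Batf3, Ctss, Ctsb, Rag2, Irf7, Siglech and Ccr9 were added after their values were seen. So were the sum of the H2-DMb copies and the genes most like each role. The 9 progenitor markers were Il7r, Flt3, Kit, Ly6d, Ly6a, Dntt, Rag1, Rag2 and Cd79a.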

Additional observations from a re-analysis of the deposited data

How the results depend on the processing

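The 10 genes were recomputed under 19 alternatives. Of 190 log2 fold changes, 184 kept their sign and side of the threshold, 3 passed the threshold (DESeq2 with the replicate block: H2-Aa, H2-Eb1 and H2-Ob, a count of 3 members) and 3 changed sign. The cause of each difference was not tested. With pairs by replicate number, the block in edgeR left 0 members and 15 genes in all past the threshold, and DESeq2 with the block 520 genes. The number of all genes past the threshold was 118 with DESeq2, 16 with no filter, 5 with upper-quartile factors, 4 with limma-voom, 3 without immunoglobulin genes, 3 with their share as covariate, 2 among genes of 5 CPM in 4 samples, and 0 to 1 with a pool left out (1 without H2afy_KO 4). Depth limits Ciita most, at 93 to 253 counts per pool.

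Without H2afy_KO 3 and 4 the log2 fold change changed sign for Cd74 (-0.312), Nfyb (0.012), Rfxank (-0.088), Cd83 (-0.060), Cd40 (-0.825), Itgax (-0.123), Xbp1 (-0.029), Derl3 (-0.370), Fam193b (-0.051), Synj2 (-0.068), St6gal1 (-0.118), Txndc5 (-0.439), Zc3h12d (-0.291), Gramd3 (-0.071) and Ralgps2 (-0.182). Without those 2 pools the sign also changed for Ctss (-0.0785), Igj (-0.719), Siglech (-0.203), Ccr9 (-0.429) and Ly6d (-0.066). The same held for Ly6a (-0.332), Ly6c2 (-2.011), Ms4a1 (-0.223) and Fcer2a (-0.335). With the immunoglobulin share as covariate the log2 fold change changed sign for Cd40 (-0.096) and H2afy2 (0.008). H2afy2, at about 1 CPM, was also at 0.400 with limma-voom and 0.020 with DESeq2 and the replicate block. With each pool left out in turn the ranges that crossed 0 were -0.070 to 0.088 for H2-DMa, -0.574 to 0.089 for H2afy2, -0.076 to 0.262 for Fam193b, -0.004 to 0.224 for Trio, -0.050 to 0.264 for Fbxl20 and -0.145 to 0.369 for Synj2.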

Other observations

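The genes most like each role, among those of at least 5 CPM outside immunoglobulin and the 10, were read after the values of the 10 were seen. Nearest to the mean profile of H2-Aa, H2-Ab1 and H2-Eb1 were Prr13, Elac2, Stard3nl, Pde7a and Myo18a, at Pearson correlations of 0.96 to 0.93 over the 8 pools. Nearest to Cd74 were St6gal1, Txndc5, Zc3h12d, Gramd3 and Ralgps2, at 0.994 to 0.985. Txndc5, a disulfide isomerase of the secretory pathway, averaged 307 ± 277 CPM in knockout and 113 ± 85.4 CPM in wild-type pools (SD, n = 4 each), and St6gal1, a sialyltransferase, 113 ± 49.3 and 78.5 ± 22.4 CPM. Nearest to H2-Oa and H2-Ob were Ccdc135, Plcb2, Tmem150b, Gm13919 and Cd37, at 0.99 to 0.96. Cd37, a tetraspanin of B cells, averaged 255 ± 47.9 and 352 ± 51.2 CPM, and Plcb2, a phospholipase C, 20.3 ± 4.44 and 32.9 ± 8.1 CPM.

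The level of H2-Ob relative to H2-Aa, per kilobase, was 1.55, 0.891, 1.05 and 1.57 in knockout pools 1 to 4, and 3.53, 2.53, 1.62 and 3.38 in wild-type pools 1 to 4. The groups did not overlap in this ratio, though they overlapped in both genes. The ratio was chosen after the values of these genes were seen and was not tested. H2-DMa relative to H2-Ob was 2.35, 1.98, 2.21 and 1.58 in knockout pools and 1.3, 1.13, 1.67 and 1.24 in wild-type pools, where knockout pool 4 reached below the highest wild-type pool.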
